A study of Mus musculus with 18 samples.

Results

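The 4 annotated noncoding RNA genes Gm26917, Gm24187, Malat1 and Neat1 were followed through all 18 RNA-seq libraries of the series. They are 4 of the 50600 Ensembl gene identifiers in the count table, found by matching each identifier to its symbol (50376 identifiers had one), and all 4 passed the filter on low counts that left 15663 genes for testing. Gm26917 and Gm24187 were chosen by the size of their measured log2 fold changes with defactinib or between genotypes in these same libraries, so their values are given as a description with no test. Malat1 and Neat1 were added as the best known nuclear long noncoding RNAs, and they were tested only for the response to LPS and for the difference of that response between genotypes.

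The cells were mouse bone marrow-derived macrophages (BMDMs) grown for 8 days in GM-CSF, the growth factor that turns marrow cells into macrophage and dendritic-like cells. They came from wild-type (WT) mice or from mice labelled IRF5 KO, which lack the transcription factor IRF5. In each genotype 1 group was left unstimulated, 1 group received DMSO vehicle for 1 h and then 100 ng/ml LPS for 2 h, and 1 group received 3.5 µM defactinib, an inhibitor of the kinases PYK2 and FAK, for 1 h before the same LPS. The 6 groups held 3 libraries each. The study calls these biological replicates, and its methods name male C57BL/6J mice aged 8 to 11 weeks without tying them to the donors of these cells. Some pairs of replicates were much closer in their counts than others. The chi-square per gene was 2.33 between replicates 1 and 2 of IRF5 KO given LPS with DMSO and 3.82 between replicates 1 and 2 of unstimulated WT. It was 4.79 between replicates 1 and 3 of IRF5 KO given defactinib, against 441 for the most distant pair. Whether the close pairs come from separate mice was not tested, and every test treats the libraries as independent. For the unstimulated libraries the sample titles name DMSO, and the study describes its RNA-seq cells as pretreated with either defactinib or DMSO, while the count columns carry only UT. How the Irf5 allele was disrupted is not given in the sources used here.

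Malat1 and Neat1 are long noncoding RNAs that stay in the nucleus. Malat1 gathers in nuclear speckles, the compartments that store splicing factors, and its 3′ end is cut by RNase P and closed by a triple helix instead of an ordinary poly(A) tail. Neat1 is the scaffold of paraspeckles, nuclear bodies that hold RNA-binding proteins such as SFPQ and NONO, and it is known to be raised by viral infection and by double-stranded RNA. Gm26917 is annotated next to a copy of ribosomal RNA sequence, and Gm24187 belongs to a small family of near-identical annotations rich in G and C.

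The label "nuclear noncoding RNA" could be checked only in part. Whole-cell RNA was sequenced, so location in the cell was not measured, and the annotation lists Gm24187 as a 57-base microRNA gene rather than as a long noncoding RNA. In mm10, Gm26917 (ENSMUSG00000097971) is a lincRNA gene at chr17:39843013-39846341 on the plus strand with 3329 exonic bases. Gm24187 (ENSMUSG00000088609) lies at chr13:9834469-9834525 on the minus strand. Malat1 (ENSMUSG00000092341) lies at chr19:5795690-5802672 on the minus strand with 6983 exonic bases. Neat1 (ENSMUSG00000092274) lies close to it at chr19:5824708-5845478, also on the minus strand, with 20771 exonic bases.

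The Gm24187 sequence is shown with that of its closest relatives because their likeness limits what a read can tell. Among 141767 annotated transcripts, 6 annotations lay within 10 edits of Gm24187, itself included. Gm23935 (chr16:11144125-11144181, plus strand) had the same sequence as Gm24245 (chr4:139338304-139338360, plus strand) and Gm24270 (chr9:56223715-56223771, minus strand), and each differed from Gm24187 by A11G, counted from the 5′ end. The capital letter marks that base.
Gm24187: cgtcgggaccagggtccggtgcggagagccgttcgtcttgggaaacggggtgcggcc
Gm23935: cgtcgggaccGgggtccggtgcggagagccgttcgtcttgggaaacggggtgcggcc
Only uniquely mapped pairs were counted, so a pair was given to one of these genes by that base or by bases outside the annotation. Values for Gm24187 and its relatives are uncertain for that reason.

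The start of Gm26917 is shown because the gene sits in a stretch of ribosomal RNA annotations. Its first 200 bases, chr17:39843013-39843212 on the plus strand, read as follows in lower case with no part marked.
Gm26917: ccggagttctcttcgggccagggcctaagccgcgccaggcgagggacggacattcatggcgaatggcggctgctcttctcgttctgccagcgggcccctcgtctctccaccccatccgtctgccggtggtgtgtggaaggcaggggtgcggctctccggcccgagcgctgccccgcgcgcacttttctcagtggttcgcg
The whole Gm26917 transcript was 69.1% G and C, above 99.9% of the 15629 tested genes with a known sequence, and Gm24187 was 71.9%, at the same percentile. Malat1 was 42.5% G and C and Neat1 was 47.3%, at percentiles 14.7 and 38.1. Beyond the 3′ end of Gm26917, 11 bases away on the opposite strand, lies the ribosomal RNA annotation CT010467.1, and 616 bases away on the same strand lies Gm42418. RefSeq places the 18S ribosomal RNA pseudogene Rn18s-rs5, for which it lists Gm42418 as a synonym, at chr17:39846354-39848202. Pairs from Gm26917 and from other copies of the ribosomal repeat may not be separable where the copies are near-identical, so its level is uncertain too.

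Sequencing depth was 39282181 to 61949143 counted read pairs per library. Levels below are in CPM, the read pairs of a gene scaled to 1000000 pairs of an adjusted library size. TMM scaling multiplied the total of each library by a factor of 0.839 to 1.231 to give that size. Percentages of counted pairs use the plain totals. All 12 macrophage marker genes had counts in the series, with a summed level of 11907 to 21820 CPM and Lyz2 at 7703 to 15895 CPM, while T, B and NK cell markers summed to 0.748 to 3.39 CPM. Dendritic cell markers summed to 1978 to 2962 CPM, most of it Itgax (CD11c) at 1809 to 2874 CPM. Ccr7 was at 8.78 to 368 CPM, Zbtb46 at 20 to 97.2 CPM and Dpp4 at 6 to 58.8 CPM, while Clec9a, Cd209a, Flt3 and Xcr1 were at 0.0169 to 10.9 CPM. Neutrophil markers summed to 58 to 236 CPM and mast cell and basophil markers to 6.89 to 21.7 CPM. Unstimulated, Irf5 was at 587, 606 and 650 CPM in WT and at 335, 396 and 364 CPM in IRF5 KO, with no overlap. The genotypes overlapped after LPS with DMSO, at 434, 475 and 443 CPM in WT and 435, 431 and 344 CPM in IRF5 KO. With defactinib they overlapped too, at 213, 234 and 379 CPM in WT and 364, 392 and 353 CPM in IRF5 KO. A whole-gene count does not show which exons were removed, so genotype is taken from the labels. Ptk2b, which encodes PYK2, was at 101 to 186 CPM across the 18 libraries.

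The 3 libraries labelled IRF5 KO, LPS with DMSO, did not form 1 group. By the root mean square difference in log2 CPM over all tested genes, replicates 1 and 2 lay 0.512 and 0.52 from the defactinib-treated IRF5 KO group and 0.693 each from the rest of their own group. Replicate 3 lay 0.672 from the unstimulated IRF5 KO group and 1.23 from its own. Each of the other 15 libraries lay nearest its own group. Tnf, which encodes an inflammatory cytokine that LPS raises, was at 2490 and 2494 CPM in replicates 1 and 2 and at 1141 CPM in replicate 3, against 55.9 to 133 CPM in the 6 unstimulated libraries, so all 3 carried an LPS response. Il6, another LPS-raised cytokine gene, was at 28.3 and 27.9 CPM in replicates 1 and 2 and at 382 CPM in replicate 3. In defactinib-treated IRF5 KO libraries Tnf was at 3493 to 3582 CPM and Il6 at 92.7 to 104 CPM, and in WT given LPS with DMSO they were at 2143 to 2610 and 833 to 1095 CPM. Replicates 1 and 2 thus lay below the defactinib-treated IRF5 KO libraries on both genes, although nearest to them over all genes. Tnf and Il6 were chosen for this check after their values were seen. Whether the labels of these 3 libraries match their treatments was not tested, and each value of the group below is a value of the libraries so labelled. Each log2 fold change of the 4 genes that uses this group is therefore given with all 3 libraries, without replicate 3, and without replicates 1 and 2, where replicate 3 alone stands for the group.

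The level of Gm26917 took either a low or a very high value. Across the unstimulated WT libraries it was at 58.1, 62.5 and 142 CPM, and across the unstimulated IRF5 KO libraries at 47, 55.8 and 56.4 CPM. After LPS with DMSO the WT libraries were at 132, 142 and 140 CPM. These 9 libraries stayed low, and the third unstimulated WT library was as high as the LPS-treated ones.

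Gm26917 was far higher in all 6 defactinib-treated libraries. With defactinib and LPS the WT libraries were at 22247, 41929 and 33719 CPM and the IRF5 KO libraries at 11389, 18566 and 12088 CPM. The IRF5 KO libraries given LPS with DMSO were split, at 26810, 26673 and 113 CPM. Replicates 1 and 2 of that group lay inside the range of the defactinib-treated libraries, and replicate 3 lay inside the range of the untreated ones. From the lowest library to the highest the level spanned 892-fold, and Gm26917 alone took from 0.00546% to 4.15% of all counted pairs in a library.

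Gm24187 followed the same division of libraries at a lower level. In unstimulated cells it was at 3.05, 2.45 and 12.3 CPM in WT and at 2.73, 2.67 and 1.91 CPM in IRF5 KO. After LPS with DMSO the WT libraries were at 8.35, 6.06 and 8.31 CPM, within the range of the unstimulated WT libraries. With defactinib and LPS it was at 67.4, 116 and 86.7 CPM in WT and at 83.4, 92.9 and 106 CPM in IRF5 KO, and these 2 groups overlapped. The IRF5 KO libraries given LPS with DMSO were at 97.4, 88.5 and 9.84 CPM, again with replicates 1 and 2 among the defactinib-treated values and replicate 3 apart. The lowest and highest libraries differed 60.9-fold, on 97 to 4829 read pairs per library.

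Malat1 differed less between groups. Unstimulated libraries were at 127, 142 and 292 CPM in WT and at 107, 130 and 123 CPM in IRF5 KO. LPS with DMSO gave 176, 267 and 224 CPM in WT, where the range lay inside that of unstimulated WT cells. With defactinib and LPS the WT libraries reached 712, 797 and 985 CPM and the IRF5 KO libraries 317, 325 and 408 CPM, and these groups did not overlap. The IRF5 KO libraries given LPS with DMSO were at 505, 525 and 118 CPM. Replicate 3 lay inside the range of unstimulated IRF5 KO cells, and replicates 1 and 2 lay between both defactinib-treated groups.

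Neat1 moved the other way in the same libraries. It was at 331, 336 and 469 CPM in unstimulated WT cells, at 195, 227 and 196 CPM in unstimulated IRF5 KO cells, and at 427, 649 and 319 CPM in WT cells given LPS with DMSO. Defactinib-treated WT libraries were lower, at 171, 168 and 156 CPM, and defactinib-treated IRF5 KO libraries held the lowest values of all, at 73.5, 78 and 76.6 CPM. The IRF5 KO libraries given LPS with DMSO were at 117, 110 and 204 CPM, where replicate 3 was level with unstimulated IRF5 KO cells. In bulk RNA, fewer cells that make a transcript and less of it per cell cannot be told apart.

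**Figure D1:**
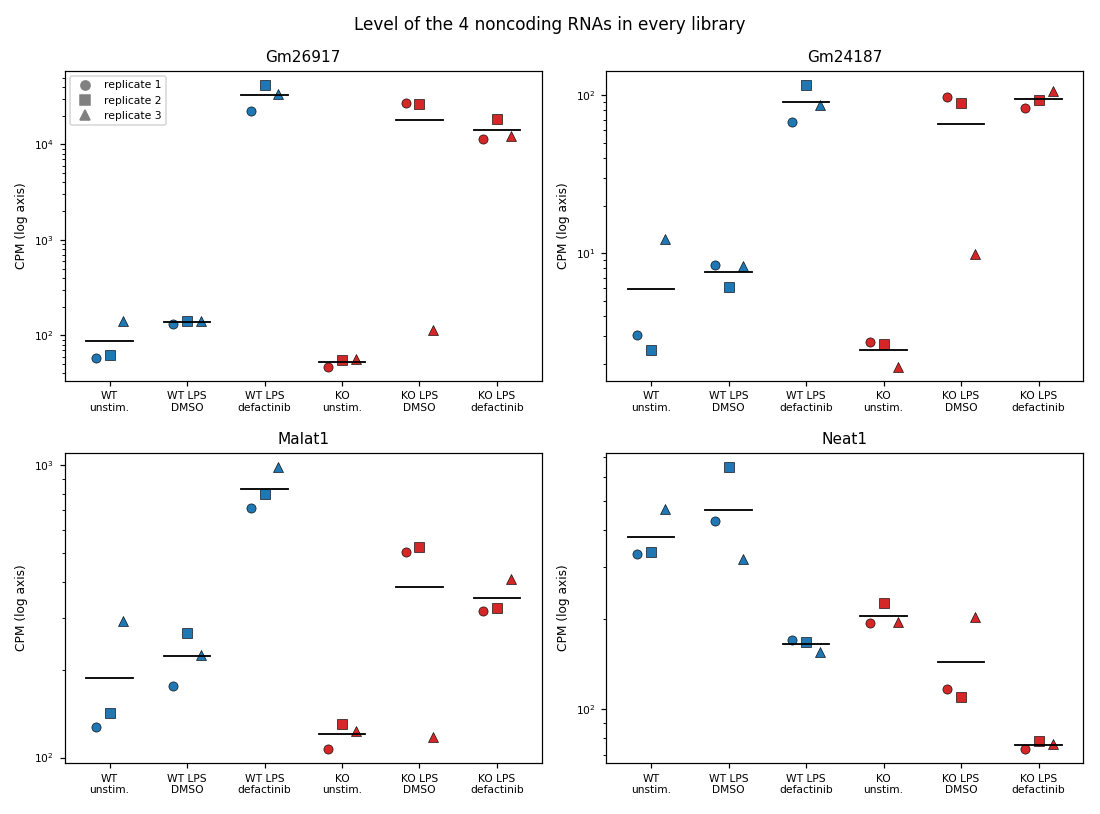
Level of each noncoding RNA in each of the 18 libraries, in CPM on a log10 axis, by group, with 1 point per library, its shape giving the replicate, and the group mean as a horizontal bar. Gm26917 lies at 47 to 142 CPM in the low libraries and at 11389 to 41929 CPM in the defactinib-treated ones, and the IRF5 KO group given LPS with DMSO holds 2 high points and 1 low point, at 113 CPM.

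In order of group means, Gm26917 was highest in defactinib-treated WT cells at 32632 ± 9886 CPM (SD, n = 3) and lowest in unstimulated IRF5 KO cells at 53.1 ± 5.28 CPM, a ratio of 615. Neighbouring groups in that order were separate in range at only 2 places. Defactinib-treated IRF5 KO cells at 14014 ± 3958 CPM lay above WT cells given LPS with DMSO at 138 ± 5.1 CPM, and unstimulated WT cells at 87.7 ± 47.5 CPM lay above unstimulated IRF5 KO cells. Gm24187 was highest in defactinib-treated IRF5 KO cells at 94.1 ± 11.4 CPM and lowest in unstimulated IRF5 KO cells at 2.44 ± 0.458 CPM, a ratio of 38.6, and the only separate neighbours were IRF5 KO cells given LPS with DMSO at 65.3 ± 48.2 CPM and WT cells given LPS with DMSO at 7.57 ± 1.31 CPM. Malat1 ran from 832 ± 140 CPM in defactinib-treated WT cells to 120 ± 11.5 CPM in unstimulated IRF5 KO cells, a ratio of 6.93, and the order was WT with defactinib, IRF5 KO with DMSO, IRF5 KO with defactinib, WT with DMSO, unstimulated WT and unstimulated IRF5 KO. The last 3 overlapped as neighbours, as did both IRF5 KO groups given LPS. Neat1 ran from 465 ± 168 CPM in WT cells given LPS with DMSO to 76 ± 2.35 CPM in defactinib-treated IRF5 KO cells, a ratio of 6.12, with unstimulated WT, unstimulated IRF5 KO, WT with defactinib and IRF5 KO with DMSO between. The overlapping neighbours were both untreated WT groups, with and without LPS, and the pair of WT with defactinib and IRF5 KO with DMSO.

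Compared per length, the order depended on the group. Over all 18 libraries the mean level per kilobase of exon was 3244 CPM for Gm26917, rank 10 of 15663 genes, and 776 CPM for Gm24187, rank 59. It was 50 CPM for Malat1, rank 1148, and 11.5 CPM for Neat1, rank 4003. The average of Gm26917 is carried by 8 libraries. In unstimulated WT cells Gm26917 and Malat1 were close on that scale, at 26.3 and 26.8 CPM per kilobase, whereas in defactinib-treated WT cells Gm26917 stood at 9802 and Malat1 at 119 CPM per kilobase. Together the 4 genes took 0.0409% to 0.0988% of counted pairs in the 10 low libraries and 1.1% to 4.26% in the other 8.

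The first comparison asked what LPS alone did in WT cells. Neither Malat1 nor Neat1 passed the test. The log2 fold change was 0.25 for Malat1 (SE 0.41, adjusted p = 0.67) and 0.3 for Neat1 (SE 0.24, adjusted p = 0.353), by edgeR's quasi-likelihood test with Benjamini-Hochberg adjustment over all 15663 genes. A gene was called changed at an adjusted p under 0.05 with a log2 fold change beyond 1, and 21.3% of tested genes were called in that comparison. With library sizes taken from total counts alone, both log2 fold changes turned negative, at -0.12 and -0.08, where that scaling moved the median gene by -0.38. Gm26917 and Gm24187 had log2 fold changes of 0.66 (SE 0.94) and 0.36 (SE 0.65) with ranges that overlapped. They were 1.19 and 1.46 without the third unstimulated WT library, which had the highest level of both genes in its group. Malat1 was then 0.72 (adjusted p = 0.214, edgeR). The test takes the spread of a gene from all groups, so the split IRF5 KO group given LPS with DMSO enters these p-values too.

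The same question in IRF5 KO cells gave an answer that depended on the library. With all 3 libraries Malat1 was higher after LPS, with a log2 fold change of 1.67 (SE 0.42, adjusted p = 0.00921, edgeR quasi-likelihood), where 13.3% of tested genes were called and 7.07% were called higher. Without replicate 3 it was 2.1 (adjusted p = 2.66e-05, edgeR). Without replicates 1 and 2 it was 0 (adjusted p = 1, edgeR), so the call rests on those libraries. With only the compared groups in the fit it was 1.73 (adjusted p = 0.11, edgeR) and the call was lost. Neat1 was not called at -0.52 (SE 0.24, adjusted p = 0.0958, edgeR), while without replicate 3 it was -0.86 (adjusted p = 0.00304, edgeR), short of the fold threshold, and without replicates 1 and 2 it was 0 (adjusted p = 1, edgeR).

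Gm26917 and Gm24187 carried the split further. The log2 fold change of Gm26917 with LPS in IRF5 KO cells was 8.39 (SE 1.3) with all libraries, 8.98 without replicate 3 and 1.1 without replicates 1 and 2. That of Gm24187 was 4.74 (SE 0.75), 5.25 and 2.02. Gm26917 and Gm24187 lay above the unstimulated range in all 3 libraries, and 16.6% of tested genes did so.

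The LPS response itself was compared between genotypes for the pair that could be tested. The response of Malat1 in WT minus that in IRF5 KO was -1.43 on the log2 scale (SE 0.59, adjusted p = 0.106, edgeR) and that of Neat1 was 0.82 (SE 0.34, adjusted p = 0.107, edgeR), so neither difference passed, and 9.83% of tested genes did. Without replicate 3 of the IRF5 KO group given LPS with DMSO, both passed, at -1.85 (adjusted p = 0.00148, edgeR) and 1.16 (adjusted p = 0.00386, edgeR). Neat1 also passed without replicate 3 of the WT group given LPS with DMSO, at 1.01 (adjusted p = 0.0478, edgeR). Without replicates 1 and 2, Malat1 turned to 0.25 (adjusted p = 0.832, edgeR) and Neat1 was 0.29 (adjusted p = 0.69, edgeR).

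Defactinib given before LPS went with the widest shifts in WT cells. The log2 fold change against DMSO was 7.88 (SE 1.27) for Gm26917, rank 30 of 15663 from the highest, 3.57 (SE 0.7) for Gm24187, 1.9 (SE 0.43) for Malat1 and -1.5 (SE 0.24) for Neat1. No range overlapped between the DMSO and defactinib groups for any of the 4, 3 of them upward. In this comparison 31% of all tested genes were separate and higher and 31.5% separate and lower, and 29.1% were called. The rule that chose Gm26917 and Gm24187 used this contrast, so nothing is read from their count. In the same comparison 2 of 7 tested dendritic cell markers were lower, Ccr7 by -3.74 (SE 0.5, adjusted p = 2.34e-05, edgeR) and Zbtb46 by -1.85 (SE 0.14, adjusted p = 6.89e-08, edgeR), and 1, Dpp4, was higher. Itgax, most of the dendritic cell marker sum, was not called. Of 12 macrophage markers 1, Adgre1, was higher and 2, Cd14 and Mertk, were lower. Over all genes 10.4% were called higher and 18.6% lower. The part of these markers in the result was not tested.

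In IRF5 KO cells the effect of defactinib again depended on the DMSO group. With all libraries the log2 fold changes were -0.35 (SE 0.94) for Gm26917, 0.53 (SE 0.63) for Gm24187, -0.13 (SE 0.41) for Malat1 and -0.92 (SE 0.24) for Neat1. For Gm26917 the sign was not fixed, at 1.67 by limma-voom and 0.05 and 0.04 without replicate 1 or 2 of the DMSO group. Without replicate 3 they were -0.93, 0.02, -0.56 and -0.58. Without replicates 1 and 2 they were 6.94, 3.24, 1.55 and -1.44, close in size to the WT values. Only Neat1 was separate between these groups, being lower in every defactinib-treated library, as were 12.5% of tested genes, and 0.919% of genes were called in this comparison.

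**Figure D2:**
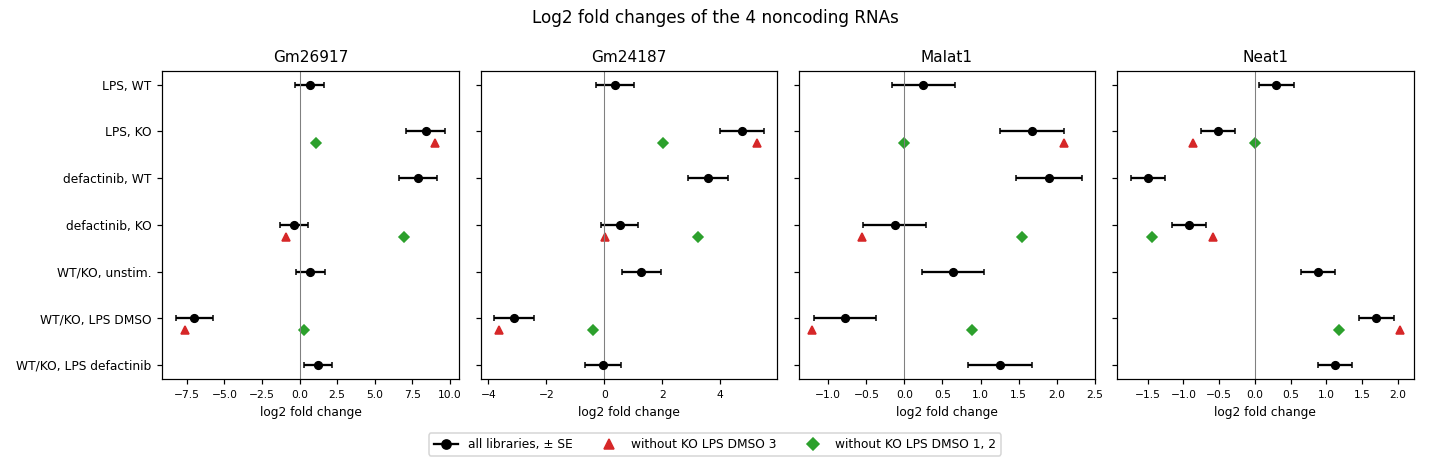
Log2 fold change of each noncoding RNA in 7 comparisons, with its standard error as a bar, beside the value without replicate 3 and without replicates 1 and 2 of the IRF5 KO group given LPS with DMSO. In the comparisons that use that group Gm26917 moves, for LPS in IRF5 KO cells, from 8.39 to 1.1 when replicates 1 and 2 are left out.

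Between genotypes, every WT library had more Neat1 than every IRF5 KO library in all 3 settings. Its log2 difference was 0.88 (SE 0.24) unstimulated, 1.7 (SE 0.25) after LPS with DMSO and 1.12 (SE 0.24) after LPS with defactinib, and no ranges overlapped. For comparison, 24.8%, 27.3% and 25.5% of tested genes were separate and higher in WT. After LPS with DMSO the Neat1 difference was 2.03 without replicate 3 and 1.17 without replicates 1 and 2. In the same order of settings, 1, 2 and 1 of 12 macrophage markers were called higher in WT and 1, 1 and 2 lower. Mrc1 was higher and Adgre1 lower each time. Of 7 tested dendritic cell markers 0, 1 and 1 were higher and 1, 1 and 2 lower. Over all genes 7.31%, 25.8% and 17.3% were called. The part of these markers in the Neat1 difference was not tested.

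The other 3 genes gave no such steady order. After LPS with DMSO, WT minus IRF5 KO was -7.01 (SE 1.22) for Gm26917, -3.11 (SE 0.69) for Gm24187 and -0.78 (SE 0.41) for Malat1. Without replicate 3 these values were -7.6, -3.62 and -1.21, and without replicates 1 and 2 they were 0.28, -0.4 and 0.89, which turned the sign for Gm26917 and Malat1. With all 3 libraries Gm24187 was separate and lower in WT, as were 23.6% of tested genes. After LPS with defactinib, where all libraries lay nearest their own group, the values were 1.22 (SE 0.95) for Gm26917, -0.06 (SE 0.62) for Gm24187 and 1.25 (SE 0.42) for Malat1, and Gm26917 and Malat1 were separate and higher in WT. Unstimulated, they were 0.72 (SE 0.95), 1.28 (SE 0.68) and 0.64 (SE 0.41), and without replicate 3 of unstimulated WT they were 0.18, 0.17 and 0.17. The share of genes called in the 3 genotype comparisons was 7.31% unstimulated, 25.8% after LPS with DMSO and 17.3% after LPS with defactinib.

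Ratios between genes within a library do not depend on library size. Malat1 per Neat1 was 0.385 to 0.702 in the 9 libraries of unstimulated cells and of WT cells given LPS with DMSO, and 4.17 to 6.32 in the 6 defactinib-treated libraries. Within the IRF5 KO group given LPS with DMSO, the lowest ratio was 0.582 and the other two were 4.31 and 4.78. This ratio parted the libraries with no overlap, although both genes are transcribed from the same strand of the same stretch of chromosome 19.

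Gm26917 was set against its neighbour Gm42418 in the same way. Gm42418 was abundant everywhere, at 1652, 1997 and 13366 CPM in unstimulated WT, 2222, 2436 and 2009 CPM in unstimulated IRF5 KO and 4837, 4042 and 5406 CPM in WT given LPS with DMSO. It was at 16815, 18216 and 22026 CPM in defactinib-treated WT, at 13656, 15917 and 14889 CPM in defactinib-treated IRF5 KO, and at 21682, 22036 and 4387 CPM in IRF5 KO given LPS with DMSO. Gm26917 per Gm42418 was 0.0107 to 0.0351 in unstimulated and WT DMSO libraries, and 0.812 to 2.3 in defactinib-treated ones. So the pair did not move in proportion: the unstimulated WT library with 13366 CPM of Gm42418 had the lowest ratio of all.

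Tests of the annotations beside Gm26917 gave smaller changes in the same direction. Gm42418 was higher with defactinib in WT cells by 2 on the log2 scale (SE 0.66, adjusted p = 0.018, edgeR), a call lost without the filter on low counts and without replicate 2 of the WT group given LPS with DMSO. With LPS in IRF5 KO cells its log2 fold change was 2.85 (SE 0.68, adjusted p = 0.00707, edgeR), 3.3 (adjusted p = 0.00131, edgeR) without replicate 3, and 1 (adjusted p = 0.627, edgeR) without replicates 1 and 2. CT010467.1 spans the whole of Gm42418 on the opposite strand and held 46 to 1503 pairs. For each of its pairs a library held 504 to 2360 pairs of Gm42418, and whether its pairs are Gm42418 pairs given to the wrong strand was not tested. CT010467.1 was higher with defactinib in WT cells by 3.64 (SE 0.84, adjusted p = 0.00189, edgeR), and that call held in all 29 settings tried. With LPS in IRF5 KO cells it was 4.15 (SE 0.87, adjusted p = 0.00383, edgeR), 4.69 (adjusted p = 5.07e-05, edgeR) without replicate 3, and 0.74 (adjusted p = 0.775, edgeR) without replicates 1 and 2. Both of these LPS calls were also lost with only the compared groups in the fit.

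The relatives of Gm24187 ran with it across the libraries but by less. The log2 level of Gm24187 had a Pearson r of 0.85 and a Spearman rho of 0.79 with Gm23935, and 0.72 and 0.69 with Gm24270, over the same 18 libraries in 6 groups. With the annotations beside Gm26917 they were higher, at 0.96 and 0.88 for Gm42418 and 0.97 and 0.87 for CT010467.1. The closest stretch of those 2 transcripts lay 22 edits from the 57 bases of Gm24187. Whether pairs given to Gm24187 come from ribosomal RNA was not tested. Gm23935, which differs by 1 base, was the most abundant gene per length in the series, with a mean of 29809 CPM per kilobase. It was at 350, 493 and 2591 CPM in unstimulated WT and at 1411, 1470 and 1589 CPM in WT given LPS with DMSO, against 1339, 2790 and 3099 CPM in defactinib-treated WT. The effect of defactinib in WT was 0.69 for Gm23935 (adjusted p = 0.335, edgeR) and 0.15 for Gm24270 (adjusted p = 0.872, edgeR), so neither passed. With LPS in IRF5 KO cells they were higher by 2.63 (adjusted p = 0.00736, edgeR) and 2.61 (adjusted p = 0.0166, edgeR), and without replicate 3 both were at 2.97 (adjusted p = 0.00334 and 0.0101, edgeR). Both calls were lost without replicates 1 and 2, at 1.57 (adjusted p = 0.416, edgeR) and 1.41 (adjusted p = 0.576, edgeR). The Gm24270 call was lost in 4 further settings, namely with only the compared groups and without replicate 1 of unstimulated IRF5 KO or replicate 1 or 2 of the IRF5 KO group given LPS with DMSO. Gm23935 per Gm24187 fell from 115 to 243 in unstimulated and WT DMSO libraries to 13.8 to 35.7 in defactinib-treated ones. Gm24245, identical to Gm23935 over its length, had 0 to 9 pairs per library and Gm25911 had 0 to 4.

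**Figure D3:**
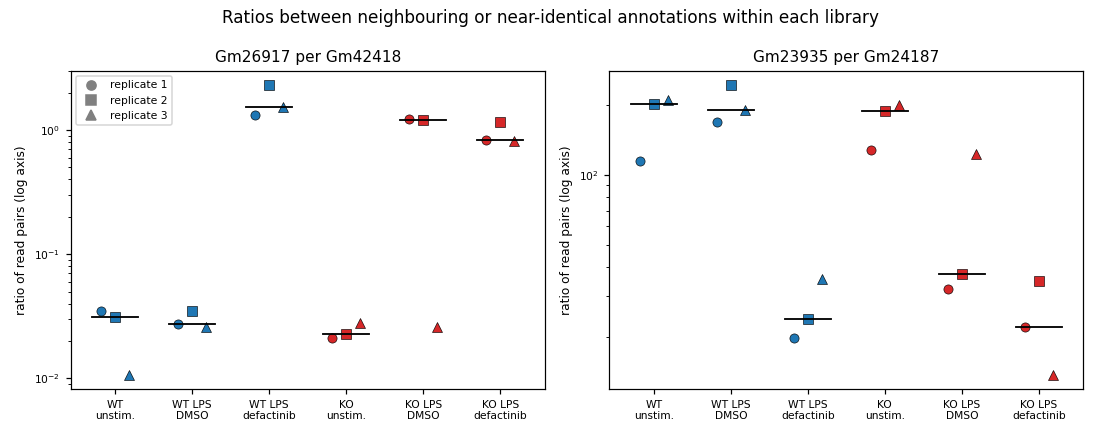
Ratios of read pairs within each library on log10 axes, for Gm26917 per Gm42418 and Gm23935 per Gm24187, with 1 point per library and the group median as a bar. In both panels the 6 defactinib-treated libraries are apart from the 9 libraries of the unstimulated groups and of WT given LPS with DMSO, and the IRF5 KO libraries given LPS with DMSO fall on both sides.

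Annotations that overlap or adjoin Malat1 and Neat1 held few pairs. Gm37376, which overlaps Malat1 on the opposite strand, had 29 to 37 pairs in defactinib-treated WT libraries and 2 to 18 in the others, too few in the low libraries for a test to be read. Frmd8os, 144 bases from Neat1 on the opposite strand, had 2 to 15 pairs per library. The Malat1 promoter, taken from RefSeq on GRCm38.p6 as 250 bases before to 50 after the start, held no match on either strand to TGANTCA, the AP-1 motif, or to TATAAA, the TATA box, letters present in 7.8% and 13.6% of the 32817 promoter windows. No window was given for the other 3 genes.

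Across the 18 libraries the log2 levels of Gm26917 and Gm24187 had a Pearson r of 0.97 and a Spearman rho of 0.9, and Gm26917 and Malat1 0.91 and 0.96. Neat1 ran against Gm26917, with r -0.73 and rho -0.54. These are descriptions over libraries that share 6 groups. By r, the genes most like Gm26917 among 8455 genes were Sdf4 at 0.993, Dctn2, a dynactin subunit, at 0.983, and Cdk5, a kinase, at 0.98. Those most like Gm24187 were the pseudogene Gm4799 at 0.965, Higd2a at 0.963 and Sdf4 at 0.959. For Malat1 they were Stxbp2, which acts in granule release, at 0.96, Cnn2, an actin-binding calponin, at 0.955, and the polyubiquitin gene Ubb at 0.934. For Neat1 they were Tmem65 at 0.959, the fatty acid receptor gene Ffar4 at 0.956 and Clcn6 at 0.953.

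Small noncoding RNAs known to be made without a poly(A) tail were counted in the same libraries. Whether Gm26917 and Gm24187 carry such a tail was not measured. Of 38 small noncoding RNA genes listed, among them spliceosomal RNAs, RNase P RNA and 7SK, 34 were in the table and 15 passed the filter on low counts. Some of the 15 were near 0 in the low libraries and passed through the libraries where they are high, so the counts and medians that follow describe those that passed and support nothing further. With defactinib in WT cells 11 were called higher and 1, Snora73b, lower, with a median log2 fold change of 5.92 against 0.09 over all genes, where 10.4% of genes were called higher. With LPS in IRF5 KO cells 11 were higher and 0 lower, against 7.07% of all genes higher, with a median of 4.18 against 0.01. DESeq2 called 11 and limma-voom 2, and without replicates 1 and 2 none was called at the threshold, while without replicate 3 there were 11 higher and 1 lower. With LPS in WT cells 0 of 15 were called by edgeR, DESeq2 or limma-voom, at a median of -0.18, and 1 had an unadjusted p under 0.05. After LPS with DMSO 11 were lower in WT than in IRF5 KO and 0 higher, against 11.8% of all genes lower and 14% higher, and 0 were called without replicates 1 and 2. DESeq2 called 11 there and limma-voom 4, and without replicate 3 edgeR called 1 higher and 11 lower. Defactinib in IRF5 KO gave 0 calls by edgeR and limma-voom and 1 by DESeq2, with 1 unadjusted p under 0.05. Without replicates 1 and 2 it gave 8 higher and 1 lower, and without replicate 3 it gave 0 higher and 5 lower, where with all libraries 0.16% of genes were called higher and 0.76% lower. Their summed level was 2.26 to 7.63 CPM in the 9 low libraries of the other groups and 52.8 to 214 CPM in defactinib-treated ones, and the IRF5 KO libraries given LPS with DMSO were at 4.05, 96 and 102 CPM.

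The 3 most abundant of those that passed are given as fitted log2 differences with no test, for the same reason. Rn7sk, the 7SK RNA that holds back the elongation factor P-TEFb, was at 6.9 (SE 1.19) with defactinib in WT and at 6.3 (SE 1.18) with LPS in IRF5 KO. Rpph1, the RNA of RNase P that cuts the 3′ end of Malat1, was at 3.2 (SE 0.72) and 2.43 (SE 0.72). Rnu5g, a U5 spliceosomal RNA, was at 5.92 (SE 0.9) and 5.63 (SE 0.98). Whether these genes and Gm26917 move for a shared reason was not tested. The sample titles call the libraries mRNA-seq, and how messenger RNA was selected is not given in the sources used here.

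Replication-dependent histone genes, whose messengers end in a stem-loop instead of a poly(A) tail, were counted in the same way. Of 29 listed, 27 passed the filter, some of them with low counts outside the high libraries, so these counts too are descriptions. Of the 27, 24 were called higher with defactinib in WT and 0 lower, against 10.4% and 18.6% of all genes, with a median of 3.8 against 0.09. With LPS in IRF5 KO 21 were higher and 0 lower by edgeR, against 7.07% of all genes higher, with a median of 2.61 against 0.01. DESeq2 called 22 and limma-voom 11, with 0 called without replicates 1 and 2 and 24 higher without replicate 3. With LPS in WT 0 were called by edgeR, 2 by DESeq2 and 1 by limma-voom, at a median of 0.6, and 4 had an unadjusted p under 0.05. Defactinib in IRF5 KO gave 0 calls by edgeR and limma-voom and 1 by DESeq2, with 6 unadjusted p under 0.05, and it gave 14 higher without replicates 1 and 2 and 4 lower without replicate 3. After LPS with DMSO 0 were higher and 19 lower in WT against IRF5 KO by edgeR, against 14% and 11.8% of all genes, 20 were called by DESeq2 and 11 by limma-voom, and edgeR gave 24 lower without replicate 3 and 1 higher and 0 lower without replicates 1 and 2. After LPS with defactinib 8 were higher and 0 lower in WT against IRF5 KO, where 8.45% of all genes were higher and 8.87% lower, and the number higher ran from 1 to 14 over the settings tried, with 14 higher and 1 lower without replicate 3 of the IRF5 KO group given LPS with DMSO. Hist1h4i, which encodes histone H4, was higher with defactinib in WT by 2.78 (SE 0.44, adjusted p = 8.73e-05, edgeR) and with LPS in IRF5 KO by 2.43 (SE 0.43, adjusted p = 0.00172, edgeR), a call lost without replicates 1 and 2. Hist1h1c, a linker histone gene, was higher with defactinib in WT by 1.34 (SE 0.16, adjusted p = 7.58e-06, edgeR), and with LPS in IRF5 KO it was at 0.26 (SE 0.16, adjusted p = 0.2, edgeR). Hist1h2bc, which encodes histone H2B, was at 0.94 (SE 0.24, adjusted p = 0.00371, edgeR) and 0.72 (SE 0.24, adjusted p = 0.0289, edgeR), both short of the fold threshold.

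**Figure D4:**
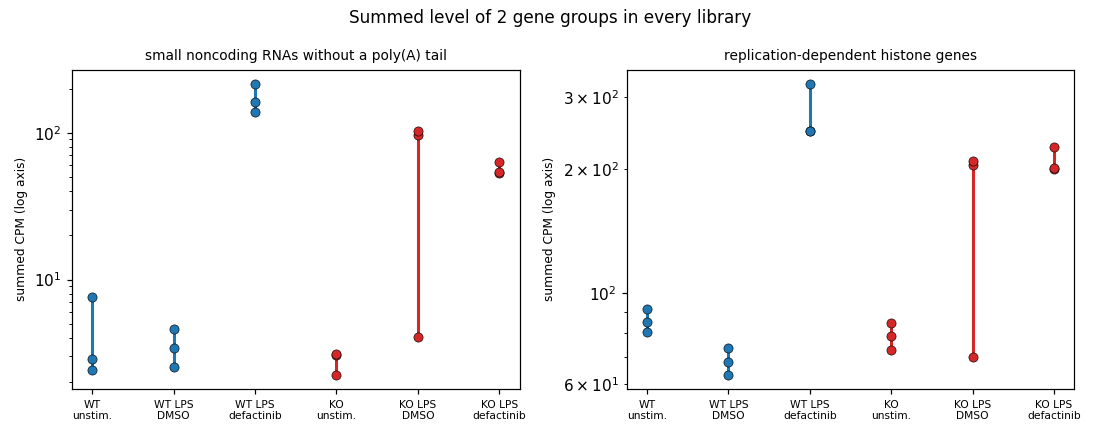
Summed level in CPM, on a log10 axis, of 2 gene groups in each library: small noncoding RNAs without a poly(A) tail and replication-dependent histone genes, with 1 point per library and a line from the lowest to the highest of a group. The small noncoding RNAs sum to 52.8 to 214 CPM in the defactinib-treated libraries and to 2.26 to 7.63 CPM in the unstimulated ones and in WT given LPS with DMSO.

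Genes for protein partners of Malat1 and Neat1 were counted next. Of 22 paraspeckle proteins tested, 0 were called with LPS in either genotype by edgeR and limma-voom, and DESeq2 called 1 in WT and 0 in IRF5 KO, while 13 and 15 had an unadjusted p under 0.05. Over all genes 21.3% and 13.3% were called in those comparisons. In IRF5 KO edgeR called 1 higher and 1 lower without replicate 3 and 0 without replicates 1 and 2. With defactinib in WT 1 was lower, Rbm12, against 18.6% of all genes. Hnrnpk, the RNA-binding protein gene with the highest level of that list, was at -0.28 with defactinib in WT (SE 0.12, adjusted p = 0.0481, edgeR), below the fold threshold, and Hnrnpm, of the same list, was at 0.09 (adjusted p = 0.388, edgeR). Of 30 nuclear speckle and splicing factors, 1 rose with LPS in WT (Tra2a) and 5 fell with defactinib in WT (Srsf2, Srsf3, Srsf5, Srsf7 and Tra2a), near the share of 18.6% of all genes called lower. After LPS with defactinib 6 of them were lower and 0 higher in WT against IRF5 KO, against 8.87% and 8.45% of all genes. The number lower ran from 4 to 6 over the settings tried. Of the 22 paraspeckle proteins 2 were lower and 0 higher there. Son, a speckle scaffold gene, was at -0.77 with defactinib in WT (SE 0.12, adjusted p = 9.66e-05, edgeR), again short of the fold threshold, as were the splicing factor gene Sf3b1 at -0.85 and the speckle protein gene Srrm2 at -0.38 (adjusted p = 7.03e-06 and 0.0679, edgeR).

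Other gene groups gave mixed counts. Of 29 other long noncoding RNAs tested, 4 rose and 8 fell with LPS in WT, where 11.6% of all genes rose and 9.71% fell, and 6 rose and 5 fell with defactinib in WT, where 10.4% rose and 18.6% fell. Mir155hg, the precursor of miR-155, rose with LPS in WT by 3.6 (SE 0.6, adjusted p = 0.000187, edgeR), while 1700020I14Rik and 1810058I24Rik, the other two most abundant of that list, were at 0.03 and 0.13 (adjusted p = 0.921 and 0.41, edgeR). Of 25 nuclear RNA decay and 3′ end factors, 2 rose and 1 fell with LPS in WT, and 1 rose and 3 fell with defactinib in WT. Rbm7, which guides the nuclear exosome to its targets, rose with LPS in WT by 1.57 (SE 0.11, adjusted p = 4.97e-08, edgeR) and was lower with defactinib in WT by -1.61 (SE 0.11, adjusted p = 3.09e-08, edgeR). Xrn2, a nuclear exonuclease that ends transcription, was at 1.01 with LPS in WT (adjusted p = 1.04e-05, edgeR), at the edge of the fold threshold, and at -0.6 with defactinib in WT (adjusted p = 0.000802, edgeR). Cpsf1, a subunit of the 3′ end cleavage complex, was at -0.08 (adjusted p = 0.67, edgeR) and 0.47 (adjusted p = 0.00553, edgeR). Of 35 RNA polymerase I and pre-rRNA processing genes, 2 rose and 4 fell with LPS in WT, and 1 rose and 4 fell with defactinib in WT. The 3 most abundant were Top1, a DNA topoisomerase, at 1.31 with LPS and -1.25 with defactinib in WT (adjusted p = 1.85e-06 and 2.56e-06, edgeR), and the nucleolar protein genes Ncl at 0.1 and -0.19 (adjusted p = 0.484 and 0.15, edgeR) and Npm1 at 0.39 and 0.11 (adjusted p = 0.0379 and 0.514, edgeR). Both of these lists lay near or below the shares of all genes given for the long noncoding RNAs. None of 13 mitochondrially encoded messengers was called by edgeR, DESeq2 or limma-voom in any of the 8 comparisons with all libraries, although 9 had an unadjusted p under 0.05 with LPS in WT, 10 with LPS in IRF5 KO, 1 with defactinib in WT, 9 with defactinib in IRF5 KO and, between genotypes, 7 unstimulated and 3 in each LPS setting. With replicates 1 and 2 left out, 8 were higher with defactinib in IRF5 KO and 6 were higher in WT after LPS with DMSO, and without replicate 3, 4 were higher with LPS in IRF5 KO. Of the ribosomal RNA list 3 genes were tested, and Gm42418, described above, was the only one called with all libraries. Without replicates 1 and 2 the other two, the mitochondrial mt-Rnr1 and mt-Rnr2, were higher with defactinib in IRF5 KO.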

How the data were processed

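Counts of read pairs per gene in 18 libraries were deposited by the authors, who aligned to mm10 with STAR, kept uniquely mapped pairs and counted with featureCounts 1.6.3 as reverse stranded. The authors used DESeq2 at a fold change above 2 and a false discovery rate below 0.05, and that threshold was kept. From the counts, edgeR 4.0.16 (R 4.3.3) fitted 1 robust quasi-likelihood model to all 6 groups of 3 after TMM scaling and filterByExpr. P-values were adjusted over 15663 genes. Levels are CPM on TMM-scaled library sizes, and SE is the absolute log2 fold change divided by the square root of F. P-values rest on a spread estimated for each gene over all 6 groups of 3 libraries, not over the compared groups alone. The split IRF5 KO group given LPS with DMSO therefore enters the p-values of every comparison. Depth was 39282181 to 61949143 pairs.

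The members and lists were chosen with earlier results of these data known. Named genes are the members, the 3 most abundant tested genes of each list, the 3 genes most correlated with each member (mean log2 CPM of at least 3), annotations beside or over a member, Irf5 and Ptk2b. Genes singled out when a count was 5 or fewer, Tnf, Il6 and the single cell type markers were named after their values were seen. The interaction of LPS with genotype and the fits without certain libraries were added after the data were seen. Alternatives were scaling, filters, DESeq2 1.42.0, limma 3.58.1, a replicate block and leaving out libraries. On simulated counts for the LPS response in WT, 195 of 200 changed genes were recovered with 1 false call among 15035 genes. The simulation gave every gene the same spread and held no split group, so it checks the code and not the error rate in these data. Sequences come from the mm10 genome and RefSeq (GRCm38.p6).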

Additional observations from a re-analysis of the deposited data

How the results depend on the processing

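The IRF5 KO group given LPS with DMSO set most limits, since its libraries did not form 1 group. Values are log2 fold changes, adjusted p-values are from edgeR unless another tool is named, and where a value moved the cause was not tested. Without replicates 1 and 2 of that group, a choice made after seeing the data that leaves 1 library assumed to vary like the others, the LPS response in IRF5 KO was 1.1 for Gm26917, 2.02 for Gm24187, 0 for Malat1 and 0 for Neat1. The defactinib effect in IRF5 KO was then 6.94, 3.24, 1.55 and -1.44, WT against IRF5 KO after LPS with DMSO was 0.28, -0.4, 0.89 and 1.17 in the same order, and the LPS response of Malat1 in WT minus IRF5 KO was 0.25. Without replicate 3 of that group and replicate 3 of unstimulated WT, also chosen after seeing the data, the LPS response in WT was 1.2 for Gm26917, 1.46 for Gm24187 and 0.72 for Malat1 (adjusted p = 0.00207, short of the fold threshold), the unstimulated genotype difference was 0.18 for Gm26917, 0.17 for Gm24187 and 0.17 for Malat1, and the LPS response in WT minus IRF5 KO was -1.38 for Malat1 (adjusted p = 0.000191) and 1.34 for Neat1 (adjusted p = 0.00122).

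With library sizes from total counts alone the LPS response in WT was -0.12 for Malat1 and -0.08 for Neat1, and WT against IRF5 KO after LPS with defactinib was 1.19 for Neat1. With only the compared groups in the fit, Malat1 in the LPS response of IRF5 KO was 1.73 (adjusted p = 0.11). Leaving out 1 library at a time, the LPS response in WT ranged from 0.43 to 1.19 for Gm26917, from -0.02 to 1.46 for Gm24187, from 0.03 to 0.72 for Malat1 and from -0.03 to 0.51 for Neat1. The unstimulated genotype difference ranged from 0.18 to 0.95 for Gm26917, from 0.17 to 1.65 for Gm24187 and from 0.17 to 0.85 for Malat1. WT against IRF5 KO after LPS with defactinib ranged from 1.11 to 1.17 for Neat1. The LPS response in WT minus IRF5 KO ranged from -1.85 to -0.95 for Malat1 and from 0.48 to 1.16 for Neat1.

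The replicate numbers did not pair the libraries: over 45 pairs with the same number the deviations correlated at -0.1 to 0.28, with 4 above 0.1. With the replicate number as a block, Malat1 in the LPS response of IRF5 KO was 1.7 (adjusted p = 0.0122), Neat1 was -0.53 (adjusted p = 0.103), and no call of either gene changed, while the genes called with defactinib in IRF5 KO went from 144 to 82. That count was 521 by DESeq2, 95 by limma-voom, 79 without a filter, 9 with only the compared groups, 527 with no fold threshold and 3212 without replicates 1 and 2 of the IRF5 KO group given LPS with DMSO. Genes called for LPS in IRF5 KO went from 2091 to 5878 with no fold threshold, 1088 at 5 CPM in 3 libraries, 153 with only the compared groups, 452 without replicates 1 and 2 and 4189 without both replicates 3. Leaving out 1 library, it ran from 1037 (without replicate 1 of the IRF5 KO group given LPS with DMSO) to 4207 (without replicate 3), and the count for defactinib in IRF5 KO from 20 (without replicate 1 of the defactinib group) to 891 (without replicate 2 of the DMSO group). The LPS response in WT minus IRF5 KO went from 1539 calls to 2681 with no fold threshold, 3612 without both replicates 3 and 3778 without replicate 3 of the IRF5 KO group alone. WT against IRF5 KO after LPS with DMSO went from 4036 to 2665 without replicates 1 and 2. With no fold threshold and at 5 CPM, the other counts went from 3340 to 6554 and 2143 for LPS in WT, from 4552 to 8922 and 2833 for defactinib in WT, from 1145 to 2396 and 598 for unstimulated genotype, from 4036 to 8177 and 2303 after LPS with DMSO, and from 2712 to 5691 and 1616 after LPS with defactinib.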

Other observations

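Summed over whole annotation classes and leaving out the 4 genes above, small nuclear RNA (snRNA) genes held 6.58 to 12.2 CPM in unstimulated libraries of both genotypes and 6.63 to 9.26 CPM in WT libraries given LPS with DMSO. In defactinib-treated libraries they held 153 to 249 CPM in WT and 44.5 to 49.8 CPM in IRF5 KO, and in the IRF5 KO libraries given LPS with DMSO 5.81, 118 and 127 CPM. Genes annotated as misc_RNA, a class with 7SK and signal recognition particle RNA copies, held 2.26 to 5.83 CPM in unstimulated libraries, 91.5 to 156 CPM in defactinib-treated WT and 39.3 to 48 CPM in defactinib-treated IRF5 KO. The ribosomal RNAs of mitochondria differed less, with 413 to 587 CPM in unstimulated libraries, 698 to 890 CPM in WT given LPS with DMSO and 1075 to 1609 CPM in defactinib-treated WT. Antisense genes went another way, with 583 to 633 CPM in unstimulated libraries, 1059 to 1114 CPM in WT given LPS with DMSO and 678 to 701 CPM in defactinib-treated WT. These sums are descriptions with no test.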
